A study of Rattus norvegicus with 36 samples.

Results

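The 10 genes described here code for the enzymes of the urea cycle (Nags, Cps1, Otc, Ass1, Asl and Arg1), for the carrier that supplies it with aspartate (Slc25a13) and for 3 enzymes that release amino acid nitrogen in liver (Gls2, Sds and Tat). They were chosen by name, with earlier results of these data known. Every probe set whose annotation names exactly that one gene was used. All 10 were measured, out of 14217 genes on the array, through 13 of the 20826 probe sets that name 1 gene. Cps1, Asl and Slc25a13 have 2 probe sets each, and the one with the higher mean represents the gene.

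The livers came from male Harlan Sprague Dawley rats, 7 weeks old at the start, kept on an NTP-2000 diet. They received the brominated flame retardant TBBPA-DBPE, tetrabromobisphenol A-bis(2,3-dibromopropyl ether), by gavage for 5 days in a row, with corn oil as the vehicle. The doses were 943, 94.3, 9.4, 0.94 and 0.1 mg/kg, vehicle animals received corn oil alone, and each of the 6 groups held 6 animals. Left lobe RNA was taken 1 day after the last dose and hybridised to 36 Affymetrix arrays. The labels number the samples of a group without an animal identifier, so the p-values measure the spread between these samples, taken here as 1 animal each.

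In liver, ammonia is joined to bicarbonate in the mitochondrion by Cps1, which needs the N-acetylglutamate made by Nags. Otc then forms citrulline, Ass1 adds aspartate to it, Asl splits the product into arginine and fumarate, and Arg1 releases urea. The nitrogen comes from amino acids, and genes of these pathways are known to answer to fasting, dietary protein, glucagon and glucocorticoids. Most of the pathway is carried by periportal hepatocytes, those nearest the incoming blood.

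The start regions of the 4 genes found in the pairs that passed a correlation test between animals (Otc, Ass1, Slc25a13 and Gls2) are shown first. These pairs are described further on. Otc passed only with Gls2, and no pair passed with the other Slc25a13 probe set. Each window runs from 250 bases before to 50 bases after a RefSeq transcript start of assembly GRCr8 and is written 5′ to 3′ on the gene's own strand. The windows are, for Otc, chrX:15202424-15202723 on the minus strand, for Ass1, chr3:35149480-35149779 on the plus strand, for Slc25a13, chr4:35328311-35328610 on the minus strand and, for Gls2, chr7:1201629-1201928 on the plus strand, the first of 2 windows of that gene. Capitals mark matches to the motifs searched.
Otc: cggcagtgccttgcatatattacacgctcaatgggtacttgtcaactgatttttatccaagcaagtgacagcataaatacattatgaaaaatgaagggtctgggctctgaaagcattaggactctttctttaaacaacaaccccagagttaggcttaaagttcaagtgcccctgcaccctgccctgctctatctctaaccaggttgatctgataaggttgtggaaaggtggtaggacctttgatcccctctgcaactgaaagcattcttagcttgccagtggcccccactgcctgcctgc
Ass1: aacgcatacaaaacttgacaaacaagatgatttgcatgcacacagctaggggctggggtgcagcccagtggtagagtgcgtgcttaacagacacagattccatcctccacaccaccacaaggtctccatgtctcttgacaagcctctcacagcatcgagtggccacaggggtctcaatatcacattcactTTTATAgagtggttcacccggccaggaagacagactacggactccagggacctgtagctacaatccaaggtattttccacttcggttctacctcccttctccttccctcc
Slc25a13: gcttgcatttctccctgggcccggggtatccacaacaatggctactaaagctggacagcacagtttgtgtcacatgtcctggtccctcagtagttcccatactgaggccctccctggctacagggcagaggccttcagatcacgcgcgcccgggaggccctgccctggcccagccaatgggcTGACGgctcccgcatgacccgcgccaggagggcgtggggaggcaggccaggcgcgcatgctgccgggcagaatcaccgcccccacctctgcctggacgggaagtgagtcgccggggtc
Gls2: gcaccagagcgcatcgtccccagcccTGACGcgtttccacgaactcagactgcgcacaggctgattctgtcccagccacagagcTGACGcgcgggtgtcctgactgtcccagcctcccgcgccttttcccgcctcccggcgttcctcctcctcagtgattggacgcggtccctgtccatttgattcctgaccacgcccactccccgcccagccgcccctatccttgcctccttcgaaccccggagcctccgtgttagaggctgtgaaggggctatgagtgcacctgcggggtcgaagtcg

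The motifs were searched on both strands. They are the cyclic AMP response element TGACGTCA, its core TGACG, the glucocorticoid receptor hexamer TGTTCT, the C/EBP palindrome TTGCGCAA and the TATA box TATAAA. The core TGACG lies inside the full element, so a full match would count under both. Slc25a13 held TGACG on its own strand with its first base 68 bases before the start, and Gls2 held it at 224 and 166 bases before the start. Ass1 held TATAAA on the opposite strand, 60 bases before the start. The Otc window held none of these letters. Of all 33469 windows of this length in the table, 21.2% held TGACG, 14.2% TATAAA, 20.7% TGTTCT, 1.83% TGACGTCA and 0.170% TTGCGCAA. Windows were found for 8 of the 10 genes. Of those not printed, the Nags window held TGACG on the opposite strand 32 bases after the start, and those of Cps1, Asl and Tat held no match. Arg1 and Sds had no entry.

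The tissue label was checked against cell type markers. The 9 measured of 10 hepatocyte markers all lay above every array median, led by albumin. So did the 8 measured Kupffer cell, 8 endothelial and 10 stellate cell markers, so this criterion does not tell these cell types apart. In vehicle the hepatocyte markers had a mean of 13.40, against 8.10, 7.67 and 6.33 for these 3 lists. The lowest-correlating array of the 36, vehicle replicate 1, had a median correlation of 0.992 with the others. Array medians lay between 4.59 and 4.66. In these bulk samples, fewer cells of a type and less RNA per cell cannot be told apart.

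No probe set passed at an adjusted p under 0.05 at any dose (limma, Benjamini-Hochberg over 31042 probe sets, percent called 0), in the F test over the 5 doses or in the trend over dose rank. The 10 genes are no exception. At an unadjusted p under 0.05, 3 of the 10 genes were below vehicle at 0.1 mg/kg, where 5.62% of all probe sets reached that level and 2.62% did so below vehicle. The count was 1 of 10 at 0.94 mg/kg (4.16% of all, 2.06% below), 0 at 9.4 mg/kg (4.85% and 2.64%), 3 at 94.3 mg/kg (6.90% and 3.22%) and 1 at 943 mg/kg (5.74% and 2.67%). None of the 10 reached it above vehicle at any dose. In the F test and the trend the count was 0 of 10, against 5.35% and 5.68% of all probe sets. The genes behind these counts were Sds at 4 doses, and Slc25a13 and Gls2 at 0.1 and 94.3 mg/kg. All comparisons share the same 6 vehicle arrays, so a gene high in those arrays is low at every dose. In all 13 probe sets the animals of each dose overlapped the vehicle animals, and from the lowest dose upwards 0.235%, 0.206%, 0.184%, 0.296% and 0.261% of all probe sets had no overlap.

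The median of the 10 genes lay slightly below vehicle at each dose. This median log2 difference was -0.11 at 0.1 mg/kg, -0.06 at 0.94 mg/kg, -0.04 at 9.4 mg/kg, -0.06 at 94.3 mg/kg and -0.05 at 943 mg/kg. Over all 14217 genes the medians lay between 0.0014 and 0.0053. In order of rising dose, 8, 8, 9, 6 and 6 of the 10 genes were below vehicle, while 47.5% to 49.4% of all genes were. These differences were small. The 95% interval stayed within 1.5-fold of vehicle for 8 of 10 genes at 4 doses and for 9 of 10 at 0.94 mg/kg, against 97.1% to 97.8% of all genes. Sds went past this limit at all 5 doses and Tat at every dose but 0.94 mg/kg.

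**Figure D1:**
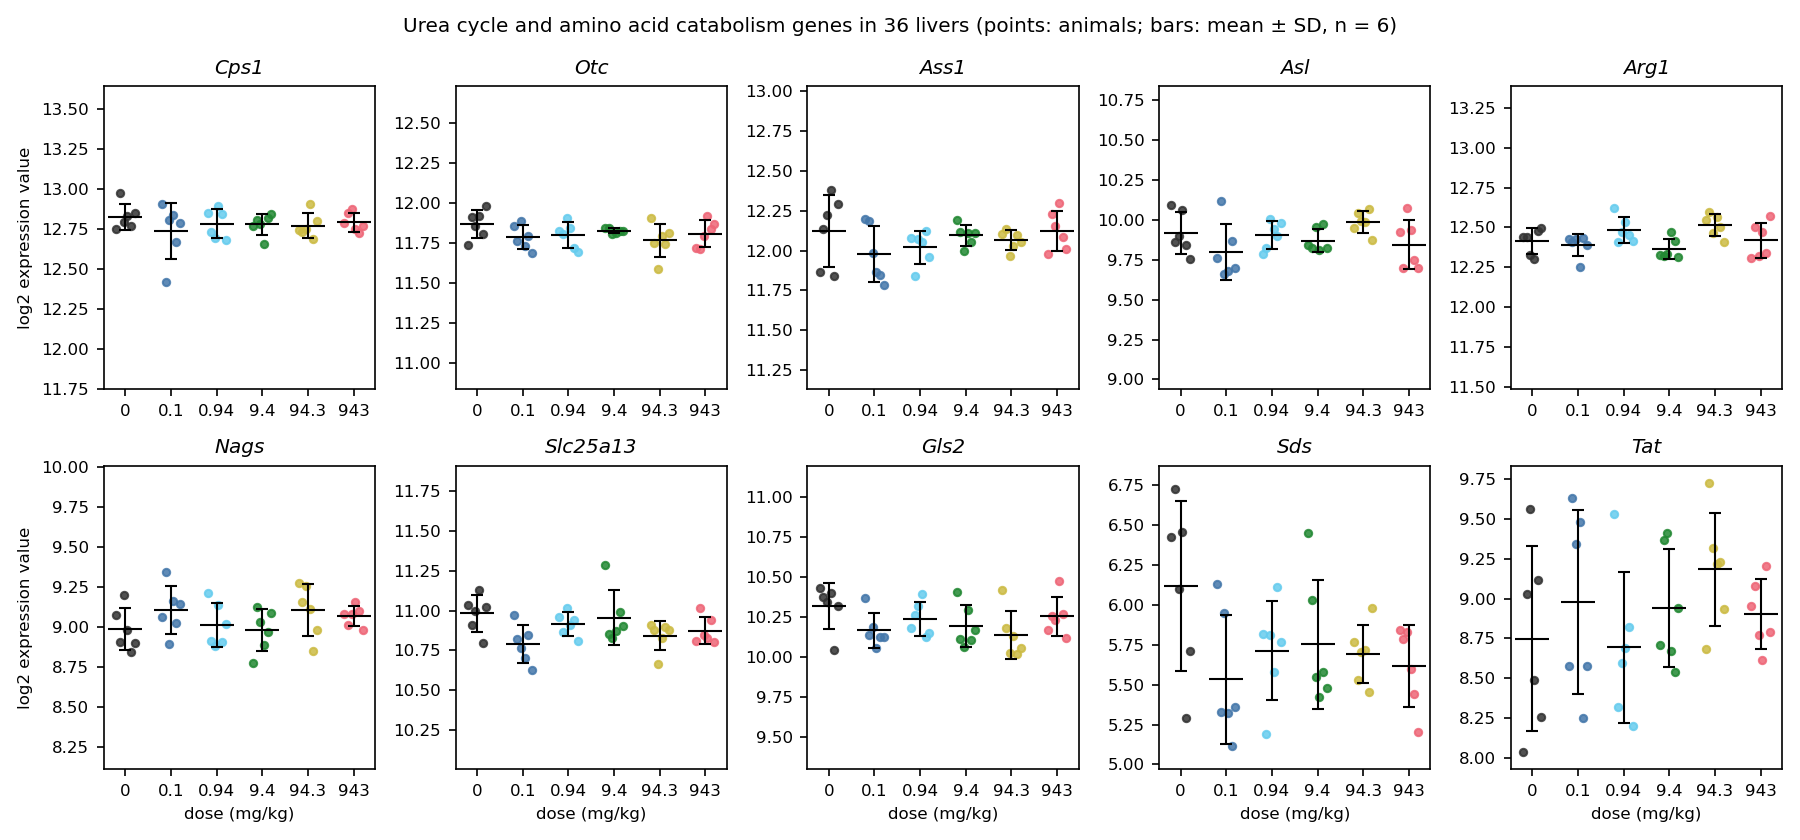
Log2 expression value of each gene in the 36 livers, by dose of TBBPA-DBPE in mg/kg, with 0 for vehicle. Points are animals and bars are the mean ± SD of 6 animals. Every panel spans the same log2 range around its own centre, so the scatter of Sds and Tat stands out against that of Otc and Arg1, and every dosed group overlaps the vehicle group.

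Nags, which makes the activator of Cps1, was nearly level over the doses. Its group means were 8.99 ± 0.13 in vehicle, 9.11 ± 0.15 at 0.1 mg/kg, 9.01 ± 0.14 at 0.94 mg/kg, 8.98 ± 0.13 at 9.4 mg/kg, 9.11 ± 0.16 at 94.3 mg/kg and 9.07 ± 0.06 at 943 mg/kg (SD, n = 6 each). The groups overlapped throughout, and no neighbours in this order differed beyond their spread. Its highest mean was at 0.1 mg/kg, the dose at which Cps1, Ass1, Asl, Slc25a13 and Sds had their lowest.

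Cps1, which commits ammonia to the cycle, gave 2 different pictures through its 2 probe sets. Through 1384334_at, lowest, median and highest log2 values were 12.75, 12.81 and 12.98 in vehicle and 12.42, 12.80 and 12.91 at 0.1 mg/kg. Medians at the other 4 doses lay between 12.75 and 12.79. The largest difference was -0.09 ± 0.06 (SE, adjusted p = 0.913 by limma) at 0.1 mg/kg.
Through 1370151_at, the values were 11.13, 11.57 and 11.64 in vehicle and 10.90, 11.18 and 11.54 at 0.1 mg/kg. That difference was -0.30 ± 0.10 (SE), with an unadjusted p of 0.0035 and an adjusted p of 0.823 by limma, and the other doses lay 0.15 to 0.17 lower than vehicle. The groups overlapped in both probe sets. Across the 36 animals, after removal of group means, the Cps1 probe sets correlated with r = 0.45, and the part of the transcript each one reads was not examined.

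Otc, the mitochondrial step after Cps1, was among the steadiest genes. Its residual SD between animals of a group was 0.079, and only 5.30% of all genes, whatever their level, had a smaller one. Group means fell in a narrow band from 11.77 ± 0.11 at 94.3 mg/kg to 11.87 ± 0.09 in vehicle. At 9.4 mg/kg the 6 animals lay between 11.81 and 11.85. The largest difference from vehicle was -0.10 ± 0.05 (SE, adjusted p = 0.734 by limma) at 94.3 mg/kg.

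Ass1, which joins citrulline to aspartate, had lowest, median and highest values of 11.84, 12.18 and 12.38 in vehicle, and 11.78, 11.93 and 12.20 at 0.1 mg/kg. Medians were 12.06 at 0.94 mg/kg, 12.11 at 9.4 mg/kg, 12.08 at 94.3 mg/kg and 12.12 at 943 mg/kg. The vehicle animals covered nearly the whole range of the study. Differences ran from -0.14 ± 0.08 at 0.1 mg/kg to 0.0020 ± 0.08 at 943 mg/kg (SE, adjusted p from 0.899 to 0.999 by limma). The sign at 943 mg/kg changed with the normalization.

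Asl, which releases arginine, had group means from 9.80 ± 0.18 at 0.1 mg/kg to 9.99 ± 0.07 at 94.3 mg/kg, with 9.92 ± 0.13 in vehicle (SD, n = 6 each). Its lowest adjusted p was 0.899 by limma. The Asl probe sets followed each other closely, with r = 0.92 over 36 animals. The accession of the second one, 1367754_s_at, belongs to Hnrnpab, an RNA-binding protein gene, in the RefSeq table, while its gene identifier names Asl. Its correlation with the Hnrnpab probe set was 0.45, below that with Asl. The other Asl probe set, 1368916_at, had r = 0.53 with Hnrnpab, so these values cannot tell which gene 1367754_s_at reads.

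Asl also moved with a measure of RNA quality. The log2 difference between the 3′ and 5′ control probe sets of beta-actin, which grows as RNA is degraded, correlated with Asl at r = -0.57 after removal of group means (n = 36, permutation p = 0.00058, adjusted 0.0116 over 20 relations, Spearman rho = -0.53, permutation p = 0.0018, adjusted 0.0366). Without the 2 animals farthest from the median of that measure, r was -0.61. It was the only one of the 20 relations between the 10 genes and the beta-actin and GAPDH measures to pass. The beta-actin group means were 1.13 in vehicle and 1.22 at 0.1 mg/kg, and between these at the other doses, and their part in the Asl values was not tested.

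Arg1, the last enzyme of the cycle, was as steady as Otc, with a residual SD of 0.081. Lowest, median and highest values were 12.30, 12.44 and 12.49 in vehicle and 12.41, 12.52 and 12.60 at 94.3 mg/kg. At that dose 4 of 6 animals lay above the vehicle range, and the difference was 0.10 ± 0.05 (SE, adjusted p = 0.748 by limma). No other cycle gene had as many animals above the vehicle range at any dose. At 9.4 mg/kg the mean was 12.36 ± 0.06 (SD), the lowest of the 6 groups, and the F test over the doses had an unadjusted p of 0.0576 (adjusted 0.929 by limma), the smallest among the 13 probe sets.

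Slc25a13, the mitochondrial carrier that exports aspartate for Ass1, was highest in vehicle. Lowest, median and highest values were 10.80, 11.01 and 11.13 in vehicle, 10.63, 10.79 and 10.97 at 0.1 mg/kg, and 10.81, 10.92 and 11.02 at 0.94 mg/kg. They were 10.83, 10.89 and 11.28 at 9.4 mg/kg, 10.67, 10.88 and 10.91 at 94.3 mg/kg, and 10.80, 10.84 and 11.01 at 943 mg/kg. All dosed groups overlapped vehicle, with 3 animals at 0.1 mg/kg and 1 at 94.3 mg/kg below the vehicle range. The differences were -0.19 ± 0.07 at 0.1 mg/kg (SE, unadjusted p = 0.0073, adjusted 0.829 by limma) and -0.14 ± 0.07 at 94.3 mg/kg (adjusted p = 0.718). The other probe set, 1379592_at, was also highest in vehicle, with differences from -0.25 ± 0.08 at 0.1 mg/kg (adjusted p = 0.823 by limma) to -0.10 at 0.94 mg/kg.

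Gls2, the liver glutaminase that frees ammonia from glutamine, was also highest in vehicle, with lowest, median and highest values of 10.04, 10.36 and 10.43. The medians were 10.13 at 0.1 mg/kg, 10.22 at 0.94 mg/kg, 10.14 at 9.4 mg/kg, 10.10 at 94.3 mg/kg and 10.24 at 943 mg/kg. The lowest vehicle animal lay below all dosed animals but 2 at 94.3 mg/kg, so the groups overlapped. The largest difference was -0.18 ± 0.07 at 94.3 mg/kg (SE, unadjusted p = 0.0203, adjusted 0.625 by limma).

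Sds, serine dehydratase, which turns serine into pyruvate and ammonia, had the largest difference of the 10 genes at every dose but 94.3 mg/kg, where that of Tat was larger. Its mean log2 value of 5.74 over the 36 livers lay nearer the array medians than that of any other of the 10 genes. Its signal over background was not measured. Lowest, median and highest values were 5.29, 6.26 and 6.72 in vehicle, 5.12, 5.34 and 6.13 at 0.1 mg/kg, and 5.19, 5.79 and 6.11 at 0.94 mg/kg. They were 5.42, 5.57 and 6.45 at 9.4 mg/kg, 5.46, 5.71 and 5.98 at 94.3 mg/kg, and 5.20, 5.69 and 5.84 at 943 mg/kg. Of the dosed animals, 6, 6, 5, 6 and 6 of 6 lay below the vehicle median, in order of rising dose. The vehicle group itself spanned most of the range, and its lowest animal was below all dosed animals but 1 at each of 0.1, 0.94 and 943 mg/kg.

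The Sds differences were -0.58 ± 0.20 at 0.1 mg/kg (SE, unadjusted p = 0.0055, adjusted 0.823 by limma) and -0.50 ± 0.20 at 943 mg/kg (unadjusted p = 0.0159, adjusted 0.865). Between these doses the log2 differences were -0.40, -0.36 and -0.43, so they did not grow with dose, and the trend over dose rank had an adjusted p of 0.877. None passed. All the doses share the same vehicle animals, and the size of the differences moved with single ones. Without vehicle replicate 2 the difference at 9.4 mg/kg was -0.24, and without vehicle replicate 5 it was -0.53. With any 1 animal left out, the sign held at every dose. The difference then lay between -0.75 and -0.46 at 0.1 mg/kg and between -0.67 and -0.38 at 943 mg/kg.

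Tat, tyrosine aminotransferase, a classical target of glucocorticoids, varied most between animals. Its lowest, median and highest values were 8.04, 8.76 and 9.56 in vehicle, 8.25, 8.96 and 9.63 at 0.1 mg/kg, and 8.20, 8.64 and 9.53 at 0.94 mg/kg. They were 8.54, 8.82 and 9.41 at 9.4 mg/kg, 8.68, 9.22 and 9.72 at 94.3 mg/kg, and 8.61, 8.87 and 9.20 at 943 mg/kg. All groups overlapped, and the highest mean was at 94.3 mg/kg, 0.43 ± 0.24 above vehicle (SE, adjusted p = 0.765 by limma). The SD between animals was 0.58 in vehicle and at 0.1 mg/kg, 0.47 at 0.94 mg/kg, 0.37 at 9.4 mg/kg, 0.35 at 94.3 mg/kg and 0.22 at 943 mg/kg. This narrowing was noticed after its values were seen and was not tested.

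**Figure D2:**
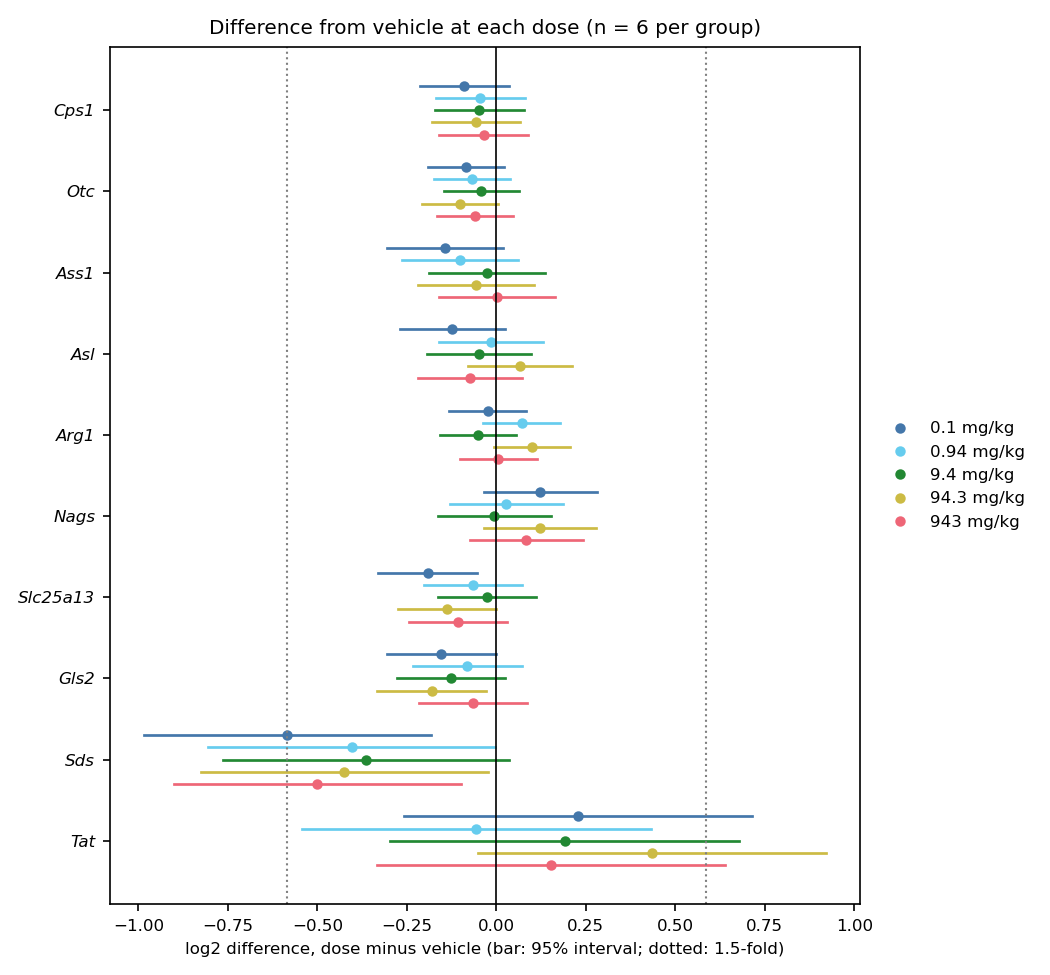
Log2 difference of each dose from vehicle for each gene, with 95% intervals from the moderated model and 6 animals per group. Dotted lines mark 1.5-fold in either direction. Intervals of Sds and Tat reach past a dotted line at most doses, and those of the other 8 genes stay inside.

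The genes differed widely in how much animals of one group varied. The residual SD of Tat was 0.45, larger than that of 98.5% of genes, and that of Sds was 0.37, larger than that of 97.4%. Such shares are over all genes, without matching for expression level. Across the 36 livers the highest Tat value was 3.21 times the lowest, and the ratio for Sds was 3.05. For Otc and Arg1 the ratios were 1.31 and 1.29. The other 6 genes had, through the probe sets that represent them, residual SDs from 0.100 for Cps1 to 0.14 for Ass1. These lie at or below the median of 0.14 over all genes. The second probe sets differed: Cps1 had 0.172, larger than that of 74.1% of genes, Slc25a13 0.145 (54.8%) and Asl 0.129 (40.6%).

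Whether the genes moved together between animals was asked over all 45 pairs, with group means removed and values permuted within groups. The correlations ran from -0.45 to 0.58 with a median of 0.086, and 29 of the 45 were positive. At an adjusted p under 0.05, 4 pairs passed, all positive, and the same 4 passed with Spearman's rho. They link the aspartate carrier, the enzyme that uses aspartate, the glutaminase and Otc. Otc passed only with Gls2. Its r of 0.48 with Ass1 and 0.35 with Slc25a13 did not pass (permutation, adjusted p = 0.0624 and 0.127).

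Ass1 and Slc25a13 correlated with r = 0.58 (n = 36, permutation p = 0.00026, adjusted 0.0117, rho = 0.57) and in the same direction in 6 of 6 groups. Slc25a13 and Gls2 had r = 0.56 (permutation p = 0.0011, adjusted 0.025, rho = 0.50), positive in 6 of 6 groups. Otc and Gls2 had r = 0.51 (permutation p = 0.0044, adjusted 0.0496, rho = 0.50), positive in 6 of 6 groups. Ass1 and Gls2 had r = 0.48 (permutation p = 0.0029, adjusted 0.0433, rho = 0.47), positive in 5 of 6 groups. On the array as a whole, between 0.218% and 1.10% of genes correlated as highly with the first gene of each pair. The pairs were picked for their high r, so these shares are no separate support. The shares for the second gene were not computed.

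The sizes held better than the calls. Without the 2 animals farthest from the median of the first gene, r was 0.49, 0.49, 0.51 and 0.47 in the order above, and 0 pairs passed. Without the 0.1 mg/kg group 0 pairs passed, 1 without the 9.4 mg/kg group and 2 without the 943 or the 94.3 mg/kg group. Over 13 other settings, r of the 4 pairs, or rho in the Spearman setting, lay between 0.42 and 0.68. Settings with the other Cps1 or Asl probe set could not change these pairs. The others reuse most or all of the same animals, so a narrow range is no separate support. With the beta-actin and GAPDH measures removed, an alternative added after the data were seen, the 4 pairs passed with r from 0.54 to 0.59.

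The choice of probe set mattered. With 1379592_at in place of 1389622_at for Slc25a13, 0 pairs passed. With 1370151_at in place of 1384334_at for Cps1, 9 pairs passed, 4 of them with Cps1: r was 0.57 with Otc, 0.52 with Slc25a13, 0.58 with Gls2 and 0.53 with Sds. Through 1384334_at, the correlations of Cps1 with Otc, Slc25a13 and Gls2 were 0.15, 0.0036 and 0.07. For the most variable genes, Sds and Tat, r was -0.02. Tat with Gls2 had a negative r in 6 of 6 groups, but the pooled r of -0.35 did not pass (permutation p = 0.0465, adjusted 0.19).

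**Figure D3:**
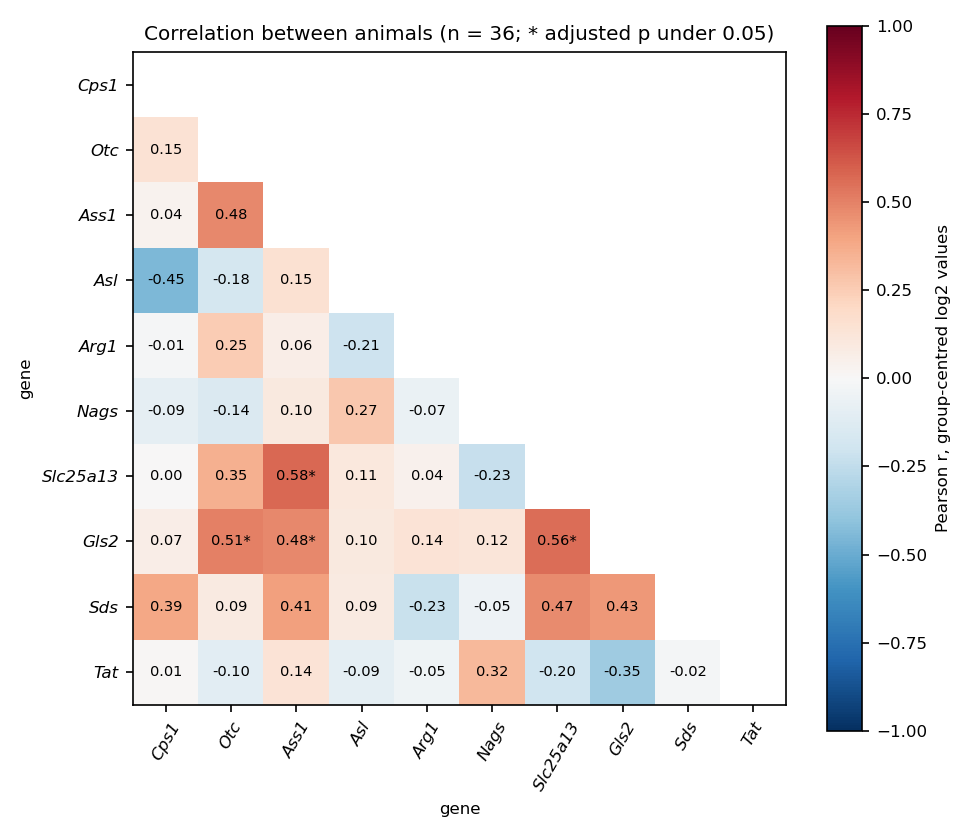
Pearson correlation of each pair of genes over 36 livers, with group means removed, for the probe set that represents each gene. Stars mark the 4 pairs with an adjusted permutation p under 0.05, Ass1 with Slc25a13 and Gls2 with Slc25a13, Otc and Ass1.

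**Figure D4:**
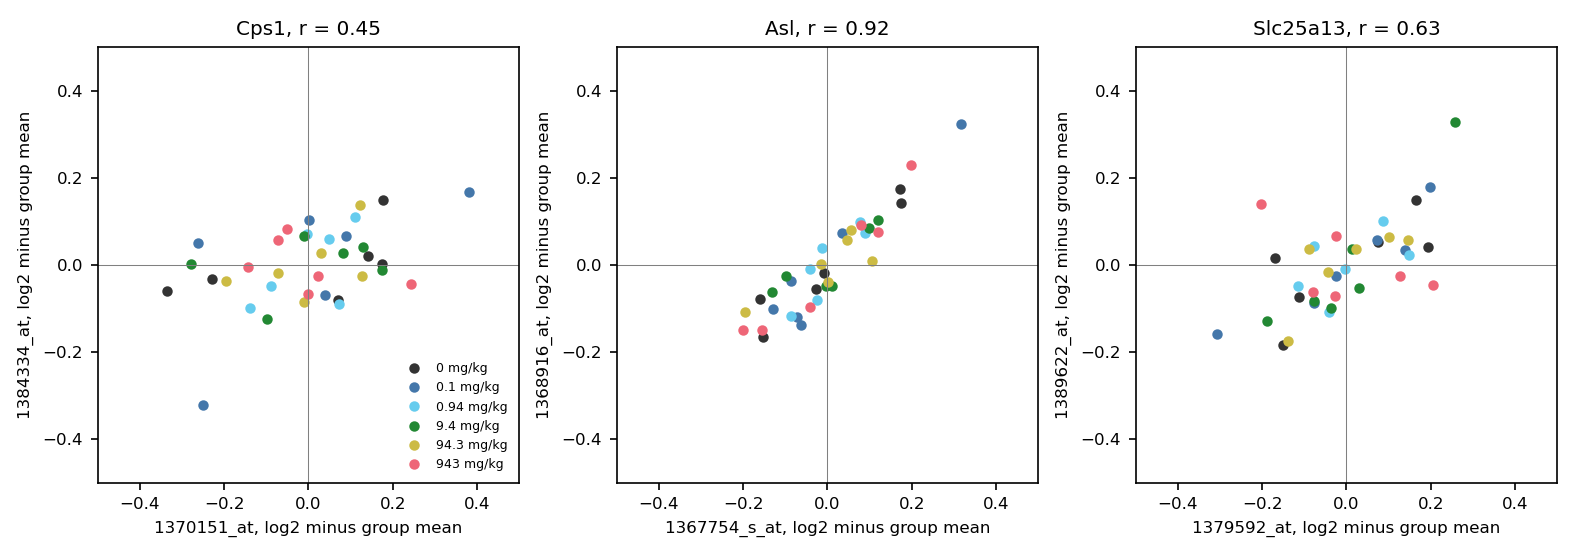
Log2 values of the probe sets of Cps1, Asl and Slc25a13 plotted against each other, each minus its group mean, with 1 point per liver coloured by dose. The points lie along a line for Asl (r = 0.92) and scatter for Cps1 (r = 0.45) and Slc25a13 (r = 0.63).

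The genes most like each one between animals were sought among 9587 genes with a mean above the median of all probe sets. Pearson's r was taken over 36 livers with group means removed, through the probe set that represents each gene. The r values were not tested, and being the highest of so many they are no separate support for a shared function. The 3 genes with the highest r are named for each gene. For Gls2 these were Uroc1 (r = 0.74), urocanate hydratase of histidine breakdown, Prodh (0.67), proline dehydrogenase, and Mettl7b (0.66). For Otc they were Slc6a6 (0.73), the taurine transporter, Bche (0.69) and Ivd (0.68), isovaleryl-CoA dehydrogenase of leucine breakdown. For Sds they were Upb1 (0.67), which acts in pyrimidine breakdown, Xdh (0.65), xanthine dehydrogenase, and Vkorc1l1 (0.64).
Cps1 went with Mmut (0.79), methylmalonyl-CoA mutase, Uty (0.69) and Nfatc1 (0.67). Asl went with Psmc3 (0.78) and Psmd2 (0.76), both proteasome subunits, and Degs1 (0.75). Ass1 went with Arhgap8 (0.73), Hsd17b11 (0.67) and Agmo (0.66), and Slc25a13 with Litaf (0.74), Tmem176a (0.72) and She (0.72). For Arg1 the values were lower, at 0.66 for Prkcz, 0.63 for Stat5a and 0.61 for Stk16. Nags went with Traf4 (0.80), Fam20c (0.77) and Kansl2 (0.76), and Tat with Ddx5 (0.76), an RNA helicase, Ranbp6 (0.76) and Mfsd14a (0.76).

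The other genes of amino acid and nitrogen handling, and of the fasting and hormone responses that act on them, were read from 6 lists. Of 103 listed genes 95 were measured, and 0 passed in either direction at any dose (limma). At an unadjusted p under 0.05 the counts were 7 at 0.1 mg/kg, 1 at 0.94 mg/kg, 8 at 9.4 mg/kg, 5 at 94.3 mg/kg and 3 at 943 mg/kg, which is 7.37%, 1.05%, 8.42%, 5.26% and 3.16% of the 95. These shares lie around those over all probe sets given above. As with the 10 genes, most were below vehicle. The counts were 69, 59, 66, 68 and 58 of 95 in order of rising dose, against 47.5% to 49.4% of all genes. All 5 doses share the same 6 vehicle arrays, so these counts are not separate from each other.

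The named genes of these lists had the smallest F test p of their list, and none passed. In nitrogen handling, Oat, ornithine aminotransferase, had -0.57 ± 0.18 at 0.1 mg/kg (SE, adjusted p = 0.823 by limma) and -0.43 ± 0.18 at 0.94 mg/kg, but -0.10 ± 0.18 at 943 mg/kg. Slc38a2 and Slc38a3, transporters of neutral amino acids and glutamine, had, for the first, -0.54 ± 0.26 at 94.3 mg/kg but 0.28 ± 0.26 at 0.94 mg/kg and, for the second, -0.15 ± 0.06 at 9.4 mg/kg. In serine and glycine breakdown, Dmgdh, dimethylglycine dehydrogenase, lay below vehicle at every dose, with -0.25 ± 0.08 at the lowest and -0.18 ± 0.08 at the highest. Gldc of the glycine cleavage system had -0.17 ± 0.10 and Cth of the transsulfuration pathway -0.14 ± 0.07, both at 9.4 mg/kg. In histidine breakdown, Uroc1 likewise lay below vehicle at every dose, with -0.19 ± 0.07 at 0.1 mg/kg and -0.20 ± 0.07 at 94.3 mg/kg (adjusted p = 0.537 by limma). Ftcd, a later step, had -0.15 ± 0.06 at 9.4 mg/kg, and Prodh2, of hydroxyproline breakdown, had -0.11 ± 0.08 at 9.4 mg/kg but 0.09 ± 0.08 at 943 mg/kg.
In branched-chain amino acid breakdown, Bckdk, the kinase that switches that pathway off, lay above vehicle at 94.3 mg/kg (0.32 ± 0.12) and 943 mg/kg (0.27 ± 0.12, adjusted p = 0.865 by limma). Ppm1k, the opposing phosphatase, was 0.46 ± 0.21 above vehicle at 9.4 mg/kg but -0.21 ± 0.21 at 94.3 mg/kg. At 9.4 mg/kg Acadsb, an acyl-CoA dehydrogenase, was -0.27 ± 0.10. In tryptophan breakdown, Haao had 0.12 ± 0.06 and Kynu -0.12 ± 0.08 at 0.1 mg/kg, and Hgd of tyrosine breakdown had -0.10 ± 0.06 at 94.3 mg/kg. Of the hormone and fasting list, Hnf4a, a hepatocyte transcription factor, was 0.29 ± 0.10 above vehicle at 94.3 mg/kg (adjusted p = 0.537 by limma). Pck1, the gluconeogenic enzyme, had -0.43 ± 0.18 at 0.1 mg/kg, and Dusp1, a phosphatase gene induced by glucocorticoids, -0.93 ± 0.53 at 94.3 mg/kg but 0.66 ± 0.53 at 0.94 mg/kg. None of these values passed.

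The dose with the lowest values of 5 of the 10 genes also had the lowest level of a periportal marker list, which holds Sds and Gls2 themselves. The mean over its 11 measured of 12 markers lay between 9.83 and 9.97 in vehicle animals and between 9.57 and 9.83 at 0.1 mg/kg, where the highest animal just overlapped vehicle. At 94.3 mg/kg it lay between 9.74 and 9.83, with every animal just below the lowest vehicle animal, and the other 3 doses overlapped vehicle. At 0.1 mg/kg 10 of the 11 markers were below vehicle, against 49.4% of all genes. At an unadjusted p under 0.05 by limma, 4 were lower and 1 was higher there, and none passed. Of all probe sets 5.62% reached that level and 2.62% did so below vehicle. All doses share the same 6 vehicle arrays. All 11 markers lay above every array median. Over the 9 markers that are not among the 10 genes, the ranges were 10.22 to 10.31 in vehicle and 9.98 to 10.18 at 0.1 mg/kg, and the other 4 doses overlapped vehicle. How often a mean over other genes shows no overlap was not examined. Among single probe sets the share was 0.235% at 0.1 mg/kg and 0.296% at 94.3 mg/kg. The part of these markers in the values of the 10 genes was not tested. The mean over 12 measured of 14 perivenous markers lay between 9.11 and 9.25 in vehicle and between 8.98 and 9.14 at 0.1 mg/kg. Its group mean was lowest at 0.94 mg/kg, where it lay between 8.97 and 9.16. All 12 markers were below vehicle there in their group means, against 48.6% of all genes. Of these 12, Lgr5 lay below every array median. The hepatocyte marker mean stayed between 13.33 and 13.48 in all 36 animals. A low level at 0.1 mg/kg was not particular to the zonal lists. Of the 8 measured Kupffer cell markers, 8, 8, 0, 1 and 7 were below vehicle in order of rising dose.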

How the data were processed

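Liver RNA of 36 rats was measured on 36 single-colour arrays. The authors deposited one log2 value for each probe set and array, made with RMA in affy per the submitters' processing notes, with versions not given there. RMA summarises probes on a compressed log2 scale after quantile normalization, so a change shared by most genes would not show. Left out were 57 array controls, and no filter on signal was used. Precision is limited by the number of arrays.

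All 36 arrays entered 1 linear model (R 4.3.3, limma 3.58.1, eBayes), with two-sided p-values adjusted by Benjamini-Hochberg over 31042 probe sets and a threshold of 0.05. Each dose was compared with vehicle, beside an F test over the doses and a slope over dose rank. Correlations used group-centred values and a permutation test with 100000 resamples within groups (Python 3.11.15, numpy 2.4.6, scipy 1.17.1), adjusted over 45 pairs. Both procedures were tested on simulated data. Gene names came from the platform annotation, in which 20758 of 20826 probe sets matched a current table through their Entrez identifier and 0 symbols differed.

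Named were all 10 genes with each of their probe sets, up to 3 genes with the smallest F test p in each list, and the 3 genes most like each gene. The members and lists were chosen with earlier results of these data known. Alternatives covered the signal filter, variance prior, array weights, replicate block, normalization, centring, moderation, samples in the fit, probe sets per gene, dose score, the array with the lowest correlation, and each animal left out in turn.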

Additional observations from a re-analysis of the deposited data

Results flagged for a closer look

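In 5 of the 78 groups of 6 animals (13 probe sets in 6 groups), 1 animal stood apart by Dixon's criterion, and chance gives this in about 5% of groups. The 0.1 mg/kg animal with replicate number 2 had an Asl value of 10.06 through 1367754_s_at, with the next at 9.78. The 0.1 mg/kg animal with number 4 had an Arg1 value of 12.25, below the next at 12.39. The 9.4 mg/kg animal with number 1 had a Slc25a13 value of 11.28 through 1389622_at, above the next at 10.99. The 94.3 mg/kg animal with number 3 had a Slc25a13 value of 10.67 through the same probe set, below the next at 10.83. The vehicle animal with number 5 had a Gls2 value of 10.04, below the next at 10.32.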

How the results depend on the processing

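Of 628 differences and trends of the 10 genes recomputed under other settings, 619 kept their direction and none passed. The other 9 changed sign near 0: with array weights Nags at 9.4 mg/kg was 0.0165 and Ass1 at 943 mg/kg -0.0482; with quantile normalization again Arg1 and Ass1 at 943 mg/kg were -0.00880 and -0.00969, and with arrays centred on their medians -0.00504 and -0.00849; without the vehicle array of lowest correlation, Asl at 0.94 mg/kg was 0.0204, Nags at 9.4 mg/kg 0.0129 and Ass1 at 943 mg/kg -0.0494. With 1 animal left out, 28 of 960 changed sign and none passed. Their ranges were -0.0465 to 0.00326 for Arg1 at 0.1 mg/kg, -0.0249 to 0.0273 for Arg1 at 943 mg/kg, -0.0477 to 0.0204 for Asl at 0.94 mg/kg, -0.0824 to 0.0246 and -0.0539 to 0.0530 for Ass1 at 9.4 and 943 mg/kg, -0.0078 to 0.00268 for the Cps1 trend, -0.0128 to 0.0704 and -0.0348 to 0.0373 for Nags at 0.94 and 9.4 mg/kg, -0.0922 to 0.00297 for Slc25a13 at 9.4 mg/kg and -0.22 to 0.11 for Tat at 0.94 mg/kg. Over all probe sets, the trend called 1 with quantile normalization again. With 1 animal left out it called 0 to 1 (1 without vehicle replicate 4 and without 9.4 mg/kg replicate 3). The count ranged from 0 to 1 at 9.4 mg/kg (1 without replicate 3) and from 0 to 11 at 94.3 mg/kg (11 without replicate 1).

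Of the 45 pairs, 4 passed. The count was 0 without the 2 animals farthest from the median, without the 0.1 mg/kg group and with the other Slc25a13 probe set, 1 without the 9.4 mg/kg group, 2 without the 94.3 or the 943 mg/kg group, 3 without vehicle, 5 without the 0.94 mg/kg group and 9 with the other Cps1 probe set. The cause was not tested. Replicate numbers gave little sign of pairing vehicle with dosed samples. Same-numbered animals of vehicle and a dose correlated between -0.17 and 0.22, 6 of 30 over 0.1. Among 6 candidates each, 6 of 30 had their own number as best partner. Number 1 did so at 0.1, 94.3 and 943 mg/kg (r = 0.15, 0.22 and 0.21). Doses were not compared with each other, so this check cannot exclude pairing. With the replicate number as a block, 0 probe sets passed in every comparison and 4 pairs did, 3 of them among the original 4. The other was Gls2 with Tat (r = -0.51, permutation, adjusted p = 0.0353). Ass1 with Gls2 then had an adjusted p of 0.0562.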
